A study of Mus musculus with 8 samples.

Results

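The adhesion receptors of the platelet surface were examined as 8 genes chosen by name: Itga2b and Itgb3, the 2 chains of the fibrinogen receptor; Gp1ba, Gp1bb, Gp9 and Gp5, the chains of the von Willebrand factor receptor; Gp6, the collagen receptor; and Clec1b, the podoplanin receptor. Probe sets named for 7 of the 8 genes were found among the 18193 genes that the array annotation pairs with a single symbol, and 9 probe sets in all belonged to them. No probe set in that annotation was named for Gp1ba alone, so its expression was not analysed here. The values came from 8 arrays of mouse embryo propers (the embryo without its placenta and membranes), kept on a BALB/c background. The 4 groups were wild-type embryos at E8.5 (embryonic day 8.5), Runx1 knockout embryos at E8.5, wild-type embryos at E12 and Runx1 knockout embryos at E12, with 2 arrays each. Runx1 encodes a transcription factor without which the embryo makes no definitive blood cells, and it is knocked out in all tissues of this line. The labels do not say whether an array held 1 embryo or several, nor whether the replicates came from separate litters, so the errors below measure only the spread between these arrays. RNA had been amplified in 2 rounds before labelling.

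Megakaryocytes are the large cells that shed platelets, and the receptors studied here are carried to the platelet surface from them. The GPIb-IX-V complex catches von Willebrand factor on an injured vessel wall, Gp6 then binds collagen and Clec1b binds podoplanin, and signals from these receptors switch the integrin formed by Itga2b and Itgb3 into its fibrinogen-binding state. Not every member is restricted to this lineage. Itga2b also marks the earliest blood progenitors of the embryo, and the product of Itgb3 also pairs with the alpha V chain in other cell types. In a whole embryo these transcripts come from a small share of the tissue, and fewer cells of a type cannot be told apart from less RNA per cell.

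The promoters of Itga2b, Gp9 and Clec1b are shown because these were the 3 members whose knockout difference differed most clearly between stages. RefSeq promoter windows on GRCm38.p6, of 300 bases each, were at hand for all 8 genes, Gp1ba included. The 250 bases before the start of each of these 3 genes are given 5′ to 3′ on the gene's strand, with matches to the motifs searched in capitals.
Itga2b, chr11:102469884-102470133, minus strand: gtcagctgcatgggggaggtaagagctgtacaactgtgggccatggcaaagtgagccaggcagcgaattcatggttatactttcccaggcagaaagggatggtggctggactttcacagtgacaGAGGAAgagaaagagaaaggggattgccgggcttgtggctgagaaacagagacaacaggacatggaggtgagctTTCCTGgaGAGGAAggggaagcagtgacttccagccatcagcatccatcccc
Gp9, chr6:87777820-87778069, plus strand: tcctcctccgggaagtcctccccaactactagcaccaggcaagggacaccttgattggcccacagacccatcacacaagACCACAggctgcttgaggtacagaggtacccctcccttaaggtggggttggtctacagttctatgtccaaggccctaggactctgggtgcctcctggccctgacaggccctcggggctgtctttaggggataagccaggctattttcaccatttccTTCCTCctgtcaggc
Clec1b, chr6:129397047-129397296, plus strand: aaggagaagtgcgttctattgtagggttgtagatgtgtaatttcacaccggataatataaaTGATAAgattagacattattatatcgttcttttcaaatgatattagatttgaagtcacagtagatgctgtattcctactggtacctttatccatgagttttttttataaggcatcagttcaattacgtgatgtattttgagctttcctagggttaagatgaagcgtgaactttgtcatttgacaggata
The words searched on both strands were TGTGGT or TGCGGT for RUNX factors, AGATAA or TGATAA for GATA factors, and GAGGAA or CAGGAA or CCGGAA or ACGGAA for ETS factors, and no matches overlapped in these 3 promoters. A RUNX word was found in 1 of the 8 windows, that of Gp9, against 22.4% of all 32851 windows. A GATA word was found in the windows of 4 members, Gp1ba, Gp5, Gp6 and Clec1b, against 18.6% of all windows. An ETS word was found in 5, those of Itga2b, Gp1ba, Gp5, Gp9 and Clec1b, against 60.0% of all windows. In the Itga2b promoter the 3 matches were all ETS words, at -126, -52 and -44 from the start. In Gp9 the RUNX word lay at -171 and the ETS word at -15, and a further RUNX word lay past the start at 45. In Clec1b the GATA word shown lay at -189, and a further GATA word at 38 and its only ETS word at 11 lay past the start, outside the stretch shown. A match is a run of letters and is no evidence that a factor was bound.

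The arrays of the 2 stages differed in scale and in spread. The median log2 intensity of an array lay between 4.96 and 5.01 at the earlier stage and between 5.16 and 5.20 at the later one, and the mean residual variance over probe sets was 0.215 at E8.5 against 0.0735 at E12. No detection calls were used here, and several members lay near the array median, where a probe set may carry little signal of its gene. Replicate 1 of the E8.5 wild type stood apart in 4 genes of trophoblast, a tissue outside the embryo proper: Tpbpa read 9.52 there and 4.15 to 5.16 on the other 7 arrays, and Ascl2, Plac1 and Hand1 were also highest on it. The other 4 genes of the same list of trophoblast and decidua genes did not stand out there: Dcn was lowest on that array, and Prl8a2, Cryab and Psg17 each read higher on at least 1 other array. The mean of all 8 genes was 8.16 on that array and 5.46 to 6.53 on the other 7. Genes of other lists were highest on that array too, among them Cdh5 (10.1) and Esam (10.1) of endothelium, Cd9 (11.3) and Srgn (9.81). Other endothelial genes, such as Tie1 and Sox18, were lowest on it. Replicate 2 of the E8.5 wild type stood apart from the other E8.5 arrays in red cell genes, with a mean over 12 such genes of 8.44 against 6.53 to 6.66. The brightest Runx1 probe set did not mark the genotype: it was 0.26 higher in the knockout at E12 (SE 0.28, log2, n = 2 per group) and 0.58 higher at E8.5 (SE 0.28). Whether that probe set reads a deleted stretch of the transcript was not known, so it does not check the labels.

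At E12 all 7 measured receptor genes were lower in the knockout than in the wild type, and in all 7 both knockout arrays lay below both wild-type arrays, a pattern seen in 18.6% of all genes. The differences ran from -0.22 for Gp6 to -3.33 for Itgb3 on the log2 scale, with a median of -1.35, against a median of -0.0063 over all genes, 51.2% of which were lower. By the study's rule of an absolute moderated t above 3, which carries no correction for the number of genes, 2 members were lower (Itga2b and Gp9), against 0.731% of all genes. At an unadjusted p below 0.05, 5 members were lower, against 1.59% of all genes. The members were chosen with earlier results of these data known, so the shares here and below are a description and no test. After Benjamini-Hochberg adjustment in limma 0 of the 7 members were called, against 0.0275% of all genes called lower, and the lowest adjusted p among members was 0.855 for Gp9. The fit estimated the spread from all 8 arrays, including the wider spread at E8.5. Fitted on the 4 E12 arrays alone, 4 members had t below -3. In that fit 648 of all 45037 probe sets passed an absolute t of 3 in either direction. The lowest adjusted p among members in limma was 0.0774, for Itgb3. Leaving out replicate 1 or replicate 2 of the E8.5 wild type gave identical E12 results, as 1 array in a group adds no spread.

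**Figure D1:**
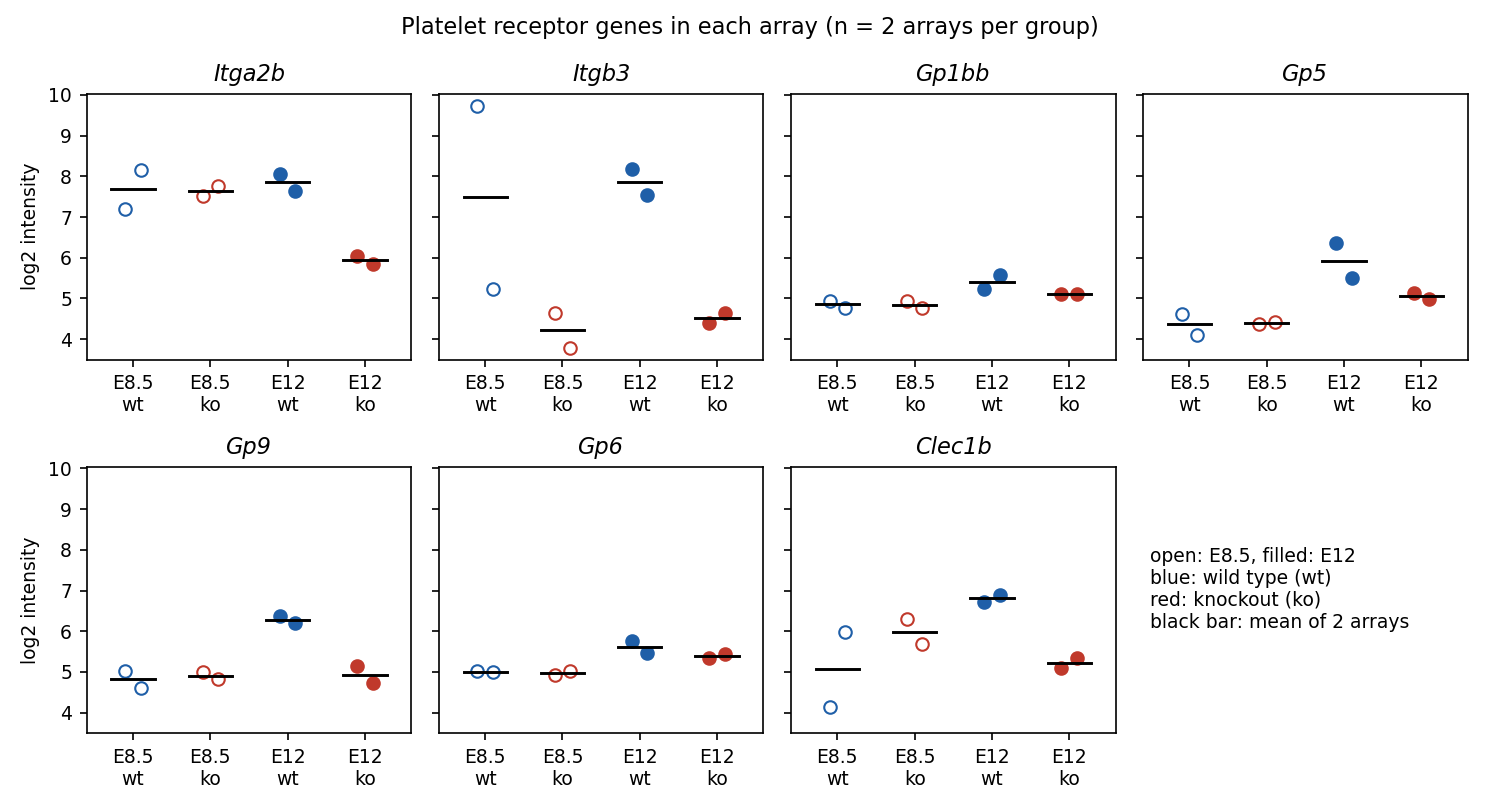
Log2 intensity of the 7 measured platelet receptor genes on each of the 8 arrays (vertical axis), by stage and genotype (horizontal axis). Open points are E8.5, filled points E12, blue wild type and red knockout, and bars are means of 2 arrays. In every panel both E12 knockout points lie below both E12 wild-type points, while the E8.5 points overlap or lie close together except for Itgb3 and Clec1b.

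Itga2b encodes the alpha IIb chain, also called CD41. At E12 its log2 intensity was 8.07 and 7.63 in the wild type and 6.03 and 5.85 in the knockout. The groups did not overlap, and the gap between them was wider than the gap within either group. The difference was -1.91 (SE 0.34, 95% interval -2.71 to -1.10, n = 2 per group), a 3.75-fold lower level, with t of -5.69 and an adjusted p of 1.000 in limma. Across the array the gene moved from the percentile 84.8 to 89.9 of all probe sets in the wild type to 63.2 to 66.3 in the knockout. Leaving out each E12 array in turn gave differences of -1.69 to -2.12.

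Itgb3 encodes the beta 3 chain, without which alpha IIb does not reach the platelet surface. Its brighter probe set read 8.18 and 7.55 in the E12 wild type and 4.40 and 4.65 in the E12 knockout. The E12 wild-type arrays were both far above the knockout arrays, and the difference of -3.33 (95% interval -6.42 to -0.25, n = 2 per group) was a 10.1-fold lower level. Its SE of 1.29 came from the E8.5 wild type, where the 2 replicates read 9.74 and 5.24, the first on the array that stood apart in trophoblast genes. The t was -2.59 and the adjusted p 1.000 in limma. With the E12 arrays alone the SE was 0.25 and t was -13.1. Without replicate 1 of the E8.5 wild type the SE was 0.33. It was the same without replicate 2, so this value does not single out either array.

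The other Itgb3 probe set did not show a difference of that size. It read 5.20 and 5.29 in the E12 wild type and 5.08 and 5.06 in the E12 knockout, close to the array median throughout, and differed by -0.18 (SE 0.44). Both probe sets were highest on replicate 1 of the E8.5 wild type, at 9.74 and 6.09. The part that tissue outside the embryo proper played in that array's Itgb3 values was not tested.

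**Figure D2:**
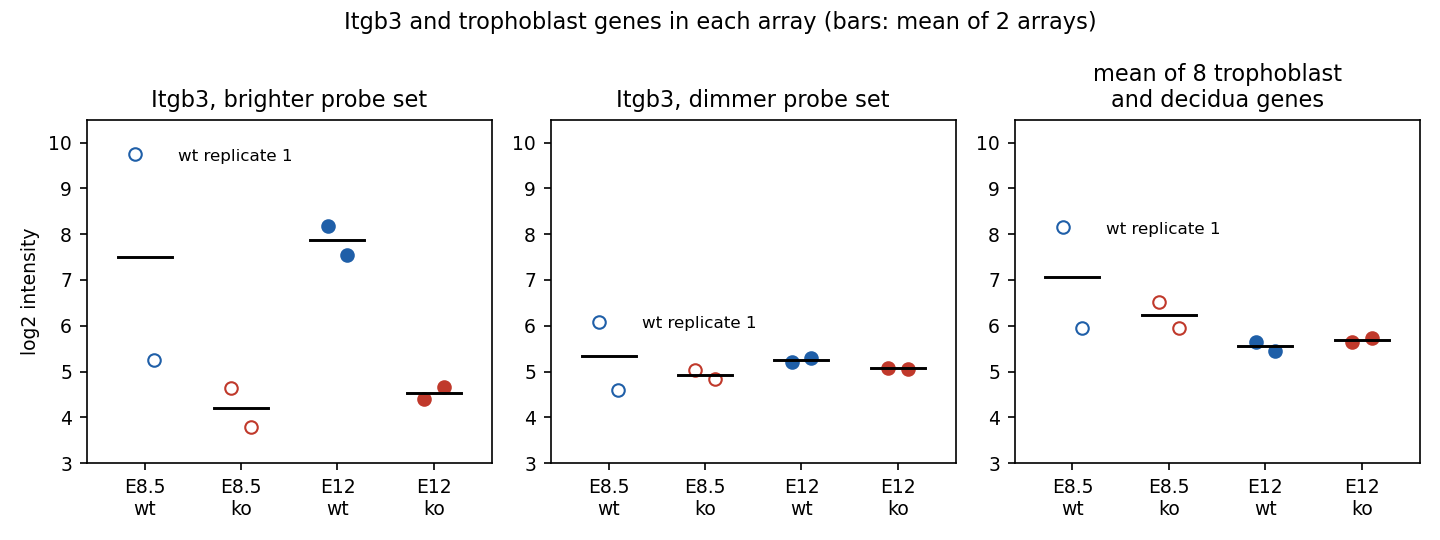
Log2 intensity (vertical axis) of the brighter and the dimmer Itgb3 probe set and of the mean of 8 trophoblast and decidua genes, by stage and genotype (wt, wild type; ko, knockout), with bars at the mean of 2 arrays. Replicate 1 of the E8.5 wild type is the highest array in all 3 panels (9.74, 6.09 and 8.16), and at E12 only the brighter Itgb3 probe set separates the genotypes widely.

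Of the GPIb-IX-V chains, Gp9 differed most at E12. Gp9 is the small chain that the complex needs to be assembled and displayed. It read 6.37 and 6.20 in the wild type and 5.14 and 4.72 in the knockout, with no overlap. The difference was -1.35 (SE 0.23, 95% interval -1.90 to -0.81, n = 2 per group), a 2.56-fold lower level, with t of -6.00 and an adjusted p of 0.855 in limma. The knockout arrays lay close to the 4 E8.5 arrays, which read 4.60 to 5.04. Gp9 stood at the percentile 69.1 to 71.8 of the array in the E12 wild type and at 37.5 to 51.6 on the other 6 arrays.

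Gp5 is the chain of the complex that thrombin cleaves. It read 6.35 and 5.50 in the E12 wild type and 5.12 and 4.98 in the knockout. The wild-type replicates differed from each other by about as much as the groups did, and the difference of -0.87 (SE 0.31, 95% interval -1.62 to -0.12) had t of -2.80 and an adjusted p of 1.000 in limma. Without replicate 1 of the E12 wild type it was -0.44 and without replicate 2 it was -1.30.

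Gp1bb encodes the beta chain that is bound to the GPIb alpha chain by disulphide bonds. Its brighter probe set read 5.24 and 5.57 in the E12 wild type and 5.11 and 5.10 in the knockout, a difference of -0.30 (SE 0.18, 95% interval -0.72 to 0.13). That interval covers 0. The dimmer Gp1bb probe set spread more, at 6.19 and 5.31 against 4.60 and 4.49, a difference of -1.20 (SE 0.64). The 2 probe sets had the same direction at E12 but not the same size, so the size of the Gp1bb difference is uncertain.

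Gp6 and Clec1b both signal through tyrosine motifs to the kinase Syk, Gp6 through its partner chain Fcer1g and Clec1b through its own tail. Clec1b read 6.72 and 6.90 in the E12 wild type and 5.10 and 5.35 in the knockout. The groups stood well apart, and the difference was -1.58 (SE 0.57, 95% interval -2.94 to -0.22, n = 2 per group), a 2.99-fold lower level, with t of -2.79 and an adjusted p of 1.000 in limma. Fitted on the E12 arrays alone, the SE was 0.18, t was -8.78 and the adjusted p was 0.274 in limma. Gp6 read 5.76 and 5.48 in the wild type and 5.36 and 5.44 in the knockout. The lower wild-type array lay only just above the higher knockout array, and the difference of -0.22 (SE 0.16, 95% interval -0.61 to 0.17) did not pass either rule.

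At E8.5 the receptors had no common direction. Of the 7 members 4 were lower and 3 higher in the knockout, with a median difference of -0.0064 (log2) against -0.014 over all genes. None passed an absolute t of 3, against 2.31% of all genes in either direction, and 1, Itgb3, had an unadjusted p below 0.05 in limma, against 5.27% of all genes. Itgb3 was also the only member with both knockout arrays below both wild-type arrays, a pattern of 15.6% of all genes.

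Itga2b was well above the array median on all E8.5 arrays, with 7.19 and 8.17 in the wild type and 7.51 and 7.76 in the knockout. The knockout values lay between the wild-type values, and the difference was -0.046 (SE 0.34, 95% interval -0.85 to 0.76, n = 2 per group), or 0.00064 after quantile normalization. The other members were dimmer. Gp9 read 5.04 and 4.60 in the wild type and 4.99 and 4.83 in the knockout, a difference of 0.090 (SE 0.23). Gp5 differed by 0.027 (SE 0.31), Gp1bb by -0.0064 (SE 0.18) and Gp6 by -0.037 (SE 0.16).

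Clec1b and Itgb3 rested on their wild-type replicates at E8.5, which disagreed. Clec1b read 4.13 and 5.99 in the wild type and 6.29 and 5.68 in the knockout, a difference of 0.92 (SE 0.57). Without replicate 1 of the E8.5 wild type that difference was -0.0081, and without replicate 2 it was 1.85. Itgb3 read 4.63 and 3.79 in the E8.5 knockout. Its difference of -3.28 (SE 1.29) became -1.03 without wild-type replicate 1 and -5.52 without replicate 2. For both genes the larger difference came with the array that stood apart in trophoblast genes kept and the array that stood apart in red cell genes left out. The part of either tissue in these differences was not tested.

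**Figure D3:**
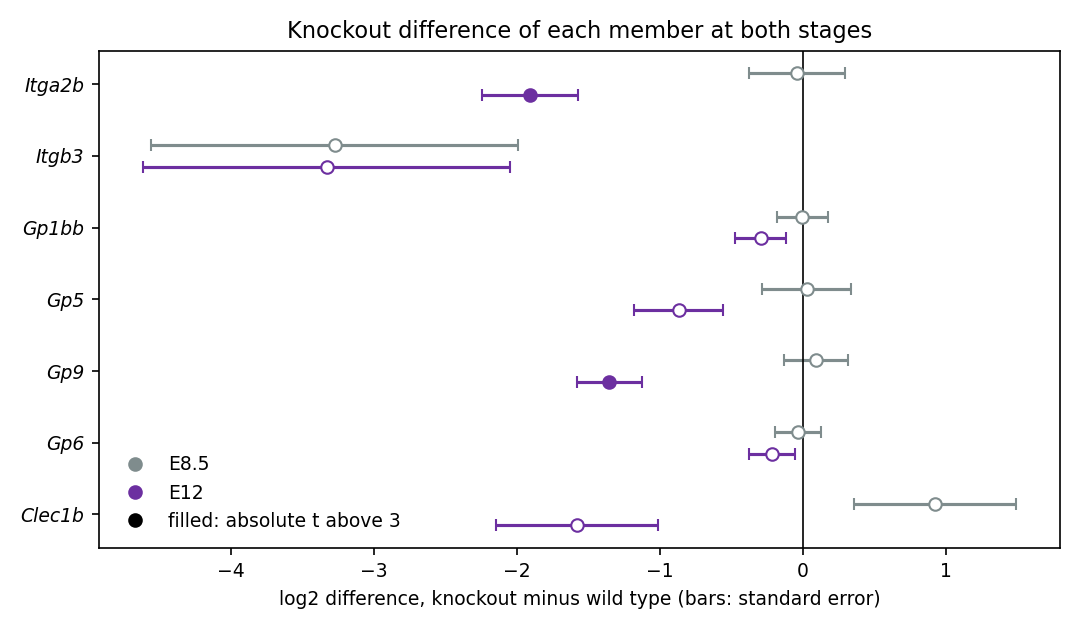
Log2 difference between knockout and wild type (horizontal axis) for each measured platelet receptor gene (vertical axis) at E8.5 (grey) and E12 (purple), with bars of 1 standard error from the fit over 8 arrays and filled points past an absolute t of 3. All 7 purple points are below 0, from -0.22 to -3.33, and of the grey points only Itgb3 (-3.28) and Clec1b (0.92) lie far from 0.

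The difference between the stages was tested directly as the E12 difference minus the E8.5 difference. It was below 0 for all 7 members, with a median of -0.90 against 0.016 over all genes. In 3 members t was below -3, against 0.654% of all genes. These were Clec1b with -2.51 (SE 0.80, t of -3.13), Itga2b with -1.86 (SE 0.47, t of -3.93) and Gp9 with -1.44 (SE 0.32, t of -4.53). The adjusted p of all 3 was 1.000 in limma. Gp9 and Itga2b kept t below -3 when any single array was left out, while the Clec1b value fell short of it when any single E8.5 knockout or E12 array was left out. For Itgb3 the value was -0.056 (95% interval -4.42 to 4.31), an interval too wide to place the stages relative to each other.

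Across the stages, the wild-type embryos had higher values at E12 than at E8.5 for all 7 members, with a median of 0.61 (log2) against -0.0093 over all genes. Over the brighter probe sets alone, those left when the dimmer ones were removed, the median was -0.41. The median step between stages thus differed with brightness, and several members lay near the array median. By adjusted p in limma 3 members rose, against 14.8% of all genes called higher. Gp5 rose by 1.56 (SE 0.31, adjusted p 0.0137), Gp9 rose by 1.47 (SE 0.23, adjusted p 0.00617) and Gp6 rose by 0.61 (adjusted p 0.0339), all in limma. The Gp6 call was lost in 10 of the 14 alternatives, among them quantile normalization and the removal of any single array but replicate 2 of the E12 wild type, with differences of 0.46 to 0.63 in those 10. The Clec1b difference of 1.75 and the Gp1bb difference of 0.55 each had an adjusted p of 0.0629 in limma. For Clec1b the adjusted p in limma was 0.0458 after quantile normalization, 0.0397 without the dimmer probe sets and 0.0436 with a trended robust prior. It was 0.0719 with a pseudocount of 16, 0.0703 with a replicate block and 0.0523 with the mean of probe sets. For Gp1bb it was 0.226 in limma after quantile normalization. Itga2b differed by 0.17 (adjusted p 0.750) and Itgb3 by 0.37, each within its replicate spread.

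In the knockout embryos the receptors had no common direction between the stages. Itga2b fell by 1.69 between E8.5 and E12 (SE 0.34, adjusted p 0.0145 in limma), from 7.51 and 7.76 to 6.03 and 5.85, the only member called lower, against 18.3% of all genes. When any 1 of the 4 knockout arrays was left out the difference stayed at -1.57 to -1.82, but the adjusted p in limma rose to between 0.0574 and 0.0972 and the call was lost. Gp9 differed by 0.022 (adjusted p 0.955 in limma), or by -0.19 after quantile normalization. Clec1b differed by -0.76 (adjusted p 0.372) and Gp5 by 0.66 (adjusted p 0.170), in limma. Without either 1 of the E8.5 wild-type arrays the Clec1b difference was unchanged at -0.76. The 7 members had a median of 0.26, with 5 higher and 2 lower, against a median of 0.012 over all genes, 49.3% of which were lower. Over the brighter probe sets alone the median was -0.37. Levels across stages rest on the authors' scaling of the 8 arrays, which is given in the sources used here by name only.

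The genes that work with the receptors were read from lists, beginning with their partners at the membrane. Of 20 measured adhesion receptors and partners, 14 were lower and 6 higher at E12, with a median of -0.11. Only Fcer1g had t below -3. It is the signalling chain of Gp6, and read 5.37 and 5.28 in the E12 wild type and 4.67 and 4.80 in the knockout, a difference of -0.59 (SE 0.16). Of 10 measured receptors for soluble agonists 7 were lower, with a median of -0.082, and F2rl2, of the thrombin receptor family, differed by -0.81 (SE 0.16) with t below -3.

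Inside the cell, 23 of 26 measured signalling genes were lower at E12, with a median of -0.30, and 3 had t below -3. Fermt3, the kindlin that activates the integrins of blood cells, read 7.88 and 6.95 in the E12 wild type and 3.75 and 3.73 in the knockout. The groups stood far apart, with a difference of -3.68 (SE 0.78), but the 4 E8.5 arrays of both genotypes read 6.92 to 9.14. Btk, a kinase downstream of Gp6, differed by -1.52 (SE 0.16, adjusted p 0.205 in limma), and Fyb, an adaptor of integrin signalling, by -0.66 (SE 0.20). Fermt3 and Btk are also made by other blood cells. None of the 26 signalling genes was called.

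The ligands of the receptors were mixed. Of 16 measured ligand genes 10 were lower and 6 higher, with a median of -0.12, and 0 had t below -3. Vwf, the ligand of GPIb, read 7.15 and 6.54 in the E12 wild type and 5.41 and 5.31 in the knockout, a difference of -1.49 (SE 0.73), and Vwf is made by both megakaryocytes and endothelium. Thbs1, an adhesive platelet granule protein, differed by -0.53 (SE 0.27).

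Of 19 measured transcription factors and cofactors of megakaryocytes 15 were lower at E12, with a median of -0.41, and 4 had t below -3. Gata1, which drives red cell and megakaryocyte maturation, read 6.43 and 6.62 in the knockout, below both wild-type arrays, a difference of -1.54 (SE 0.23, adjusted p 0.699 in limma). Myb, Lmo2 and Gfi1b, all regulators of blood progenitors, differed by -1.37, -1.36 and -1.27. None of the 4 was called.

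Of 18 other measured genes of megakaryocytes and platelets, neither receptors nor regulators, 17 were lower at E12, with a median of -0.64, and 3 were called by limma: Pf4, a chemokine of platelet granules (-5.71, adjusted p 0.00176), Ppbp, another granule chemokine (-3.34, adjusted p 0.0325), and Tubb1, the tubulin of the platelet rim (-2.95, adjusted p 0.0327). F13a1, the subunit of clotting factor XIII carried by platelets and macrophages, differed by -1.46 (adjusted p 0.595).

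**Figure D4:**
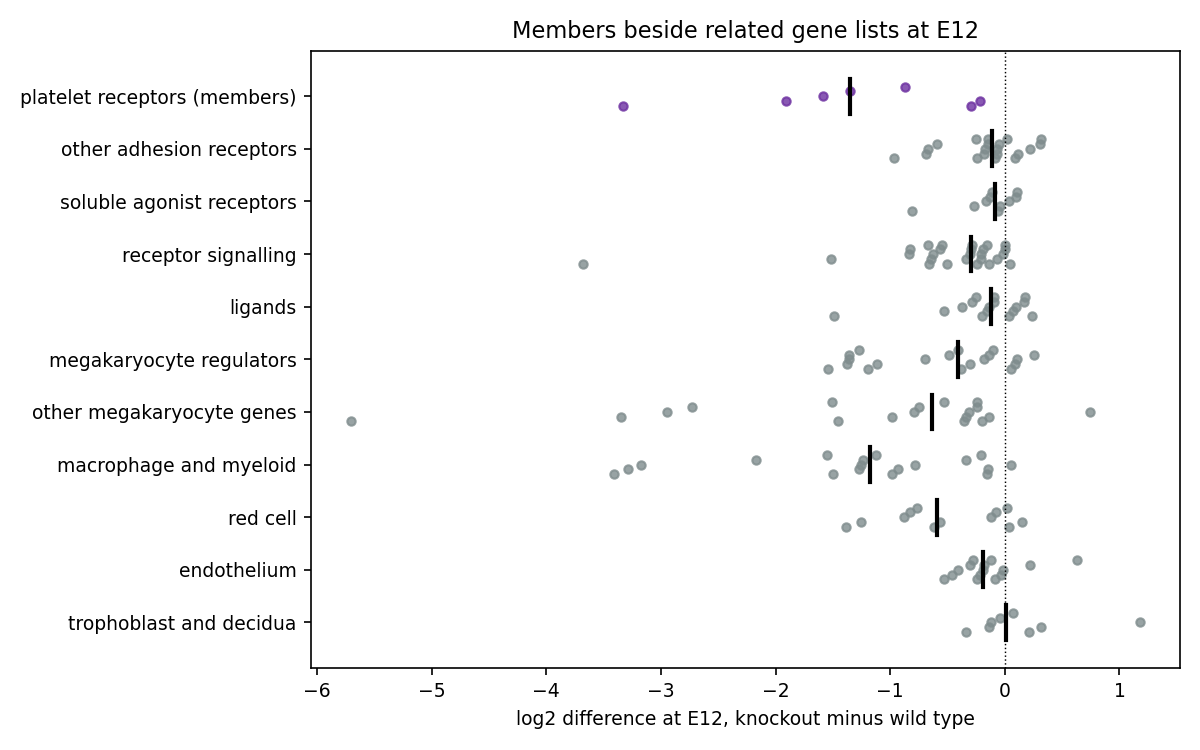
Log2 difference between knockout and wild type at E12 (horizontal axis) for each measured gene of the platelet receptors (purple) and of 10 related gene lists (grey), with a black bar at each median. The receptors have the lowest median (-1.35), followed by macrophage and myeloid genes (-1.18) and other megakaryocyte genes (-0.64), with Pf4 (-5.71) at the far left. The receptors and lists were chosen with earlier results of these data known.

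Markers of other cell types moved at E12 too. Of 18 macrophage and myeloid genes 17 were lower, with a median of -1.18, 10 with t below -3 and 2 called by limma, Ctss, a lysosomal protease (-3.29), and Lyz1, a lysozyme (-3.41). Mpo, the peroxidase of neutrophil granules, differed by -3.18 (adjusted p 0.0553 in limma) and Fcgr3, a receptor for antibody, by -2.17 (adjusted p 0.352). Their mean log2 intensity was 6.25 and 5.98 in the E12 wild type and 4.82 and 4.81 in the E12 knockout, and 4.66 to 4.73 at E8.5. The mean of the 7 receptors ran alongside, at 6.67 and 6.40, 5.18 and 5.16, and 5.18 to 5.81 at E8.5. Of 12 red cell genes 9 were lower, with a median of -0.59, and 1, Hbb-b2, an adult beta globin gene, had t below -3 with a difference of -0.88. Of 15 endothelial genes 13 were lower with a median of -0.19, and 1, Emcn, an endothelial sialomucin, had t above 3 with a difference of 0.63. The 8 trophoblast and decidua genes split 4 and 4 at E12, and Dcn differed by 1.18 (SE 0.48) and Cryab by -0.34 (SE 0.36). The part that a change in the share of any of these cells played in the receptors' differences was not tested.

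The array profile most like that of the receptors was sought among 8370 genes with an SD of at least 0.5 over the 8 arrays, by Pearson r with the mean of the 7 centred member profiles. The closest were S100a8, a calcium-binding protein of neutrophils (0.99), F13a1 (0.94), Pf4, Lyz1 and Slc14a1, a urea transporter of red cells (each 0.93), Nckap1l, a cytoskeletal regulator of blood cells, and Ctss (each 0.92), and Ppbp (0.91). The member profiles were centred but not scaled, so Itgb3, which read 3.79 to 9.74 over the arrays, weighed most in their mean. These 8 arrays share stage and genotype in pairs, so the values describe the profiles only. S100a8 deviated from its mean by 1.34 and 0.95 on the E12 wild-type arrays and by -0.60 to 0.27 on the other 6.

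The receptors resembled each other unequally. Against the mean of the other 6 members r was 0.89 for Gp9, 0.67 for Gp5, 0.64 for Gp1bb, 0.57 for Gp6, 0.38 for Itgb3, and 0.32 for both Itga2b and Clec1b, over the 8 arrays. Of the 3 genes at the low end, Itga2b stood high at E8.5 in both genotypes, and the E8.5 wild-type replicates of Itgb3 and Clec1b disagreed. For Itga2b and Clec1b the mean of the others, which was not scaled, held Itgb3, at 9.74 on replicate 1 of the E8.5 wild type. Clec1b was at its lowest on that array, at 4.13. Neither the order of these r values nor what set it was tested.

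**Figure D5:**
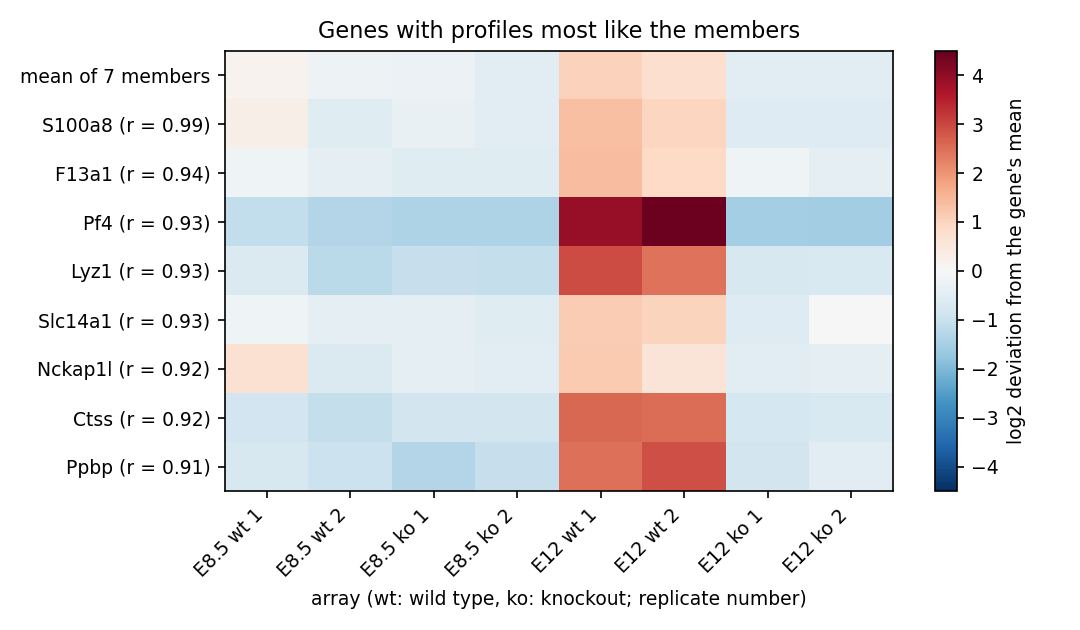
Deviation of log2 intensity from each gene's own mean (colour) on each of the 8 arrays (horizontal axis) for the mean of the 7 receptors and the 8 genes with the most similar profile (vertical axis, with r). All rows are high on the 2 E12 wild-type arrays, where the receptor mean deviates by 1.02 and 0.75 and S100a8 by 1.34 and 0.95.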

How the data were processed

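Total RNA of embryo propers was amplified in 2 rounds and hybridised to Affymetrix mouse genome arrays. The authors normalised the arrays with RMA and deposited the values as linear intensity for 45101 probe sets. They were used as log2 with no pseudocount, after 64 control probe sets were left out. Of the 45037 others, 34945 had 1 gene symbol in the platform annotation and 932 had several. The brightest probe set by mean log2 stood for each gene. Groups came from the sample titles. limma 3.58.1 (R 4.3.3; lmFit and eBayes, 1 mean per group, 8 arrays) gave differences, and p-values were adjusted by Benjamini-Hochberg over all 45037 probe sets at 0.05. The second rule was an absolute t above 3. The fit was tested on simulated data. Only 2 arrays per group bound the precision. The members and gene lists were chosen with earlier results of these data known. Genes were named from each list if past t of 3 at E12 (up to 4 per list), otherwise the 2 highest. Alternatives were quantile normalization, a pseudocount of 16, leaving out the dimmer probe sets, a trended robust prior, a replicate block, each stage alone, the mean of a gene's probe sets, and leaving out each array.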

Additional observations from a re-analysis of the deposited data

Results flagged for a closer look

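The knockout differences of 3 receptor genes differed between E12 and E8.5 by an interaction term past an absolute t of 3: Itga2b (-1.86 on the log2 scale, E12 difference minus E8.5 difference), Gp9 (-1.44) and Clec1b (-2.51). The adjusted p was 1.000 for each in limma, so none passed after correction. The E8.5 wild-type replicates disagreed for Itga2b (7.19 and 8.17) and Clec1b (4.13 and 5.99). Without replicate 2 of that group the terms were -2.35 for Itga2b and -3.44 for Clec1b. The only E8.5 wild-type array left was then replicate 1, the array that stood apart in trophoblast genes. Without replicate 1 the terms were -1.38 for Itga2b and -1.57 for Clec1b.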

How the results depend on the processing

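No E12 difference of a measured receptor gene changed sign or was called by limma under any alternative run. Leaving out the dimmer probe sets removed Gp1bb and Gp5 and left the E12 differences of the other members unchanged. The median given below for that setting covers those other members only. It differs from the -1.35 of all 7 members because of this removal, not because any difference grew. The count of receptors with t below -3 at E12, 2 as reported, rose to 4 when the E12 arrays were fitted without the E8.5 arrays, to 4 under quantile normalization, and lay between 2 and 5 leaving out 1 array, and the median E12 difference was -1.55 after quantile normalization, -1.01 with a pseudocount of 16, -1.58 without the dimmer probe sets and -1.46 to -1.14 leaving out 1 array. With the replicate number as a block the count of receptors with t below -3 at E12 was 4. In that fit 369 of all probe sets passed an absolute t of 3 in either direction. Deviations of same-numbered arrays correlated at 0.372 (E8.5) and 0.173 (E12). These 2 pairs were too few to show that the numbers pair the samples, and the block changed no other receptor call. Leaving out 1 array, the count past an absolute t of 3 at E8.5 was 0 to 2 and the count of receptors called lower from E8.5 to E12 in the knockout was 0 to 2. Signs turned in near-zero or unsteady differences. At E8.5 the Itga2b difference was 0.00064 after quantile normalization. Leaving out 1 array, the E8.5 differences ran from -0.53 to 0.44 for Itga2b, -0.097 to 0.084 for Gp1bb, -0.23 to 0.28 for Gp5, -0.13 to 0.31 for Gp9, -0.079 to 0.0053 for Gp6 and -0.0081 to 1.85 for Clec1b. The stage step ran from -0.32 to 0.66 for Itga2b and -1.88 to 2.62 for Itgb3 in the wild type, and from -0.11 to 0.73 for Itgb3 and -0.19 to 0.23 for Gp9 in the knockout (-0.19 for Gp9 after quantile normalization). The Itgb3 difference between stages ran from -2.30 to 2.19, and was 0.093 with the mean of its probe sets. The causes were not tested. With 2 arrays a group and signals near the array median, small differences of Gp1bb, Gp6 and the dimmer Itgb3 probe set were not resolved.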

Other observations

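One further probe set is annotated to both Septin5 and Gp1bb, neighbouring genes with shared transcripts, and was not used for either. It read 6.76 and 6.15 in the E12 wild type and 6.56 and 6.57 in the E12 knockout, a difference of 0.11 (log2, n = 2 per group), where the 2 probe sets named for Gp1bb alone were lower in the knockout. At E8.5 it read 7.36 and 4.60 in the wild type and 4.49 and 4.24 in the knockout, highest on replicate 1 of the wild type, the array that stood apart in trophoblast genes and in Itgb3. Pdpn, the ligand of Clec1b, read 8.67 and 8.76 in the E12 wild type and 8.83 and 8.75 in the knockout, a difference of 0.071 (SE 0.20), and Itgav, whose chain also pairs with the beta 3 chain, differed by -0.050 (SE 0.30). These genes were chosen after their values were seen.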
